A study of Mus musculus with 18 samples.

Results

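The genes described here encode the proteins of the cytosolic ribosome. They were taken by symbol as the protein-coding mouse genes named Rpl or Rps followed by a number, with Rplp0, Rplp1, Rplp2 and Rpsa. Of 27997 genes with expression values, 81 met this rule, 49 of the large and 32 of the small subunit. A further 6 genes with such symbols (Rps3a2, Rps3a3, Rps4l, Rps12l1, Rpl6l and Rpl32l) were left out because the annotation does not class them as protein-coding. Rpl10l and Rpl39l were not analysed here. Of the 81 genes, 80 reached a log2 value of 3.32 (10 on a linear scale) in 3 or more libraries and could be tested. The exception was Rpl3l, a relative of Rpl3 known from muscle, whose log2 values lay between -0.46 and 0.63 in the 18 libraries.

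A ribosome holds a single copy of nearly every ribosomal protein, and its genes are transcribed and translated as a coordinated set. Their mRNAs are known for a run of pyrimidines at the 5′ end, through which growth signals acting on mTOR adjust their translation. Demand for new ribosomes is known to be high in dividing progenitors such as neural stem cells (NSCs). The genes also have many processed pseudogenes in the mouse genome, which makes their short reads hard to assign.

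RNA was measured in adherent NSC cultures, recovered at day 4, and in astrocytes made from them with BMP4 at 20 ng/ml and recovered at day 6. The NSC medium contained bFGF, EGF, heparin and laminin, and for differentiation it was replaced by DMEM:F12 with BMP4, the only factor the labels name for it. There were 3 culture lines and 3 libraries per line and fate, 18 libraries in all. The tdTomato line (DNGR-1 +/- Tom+/-) and the EYFP line (DNGR-1 +/- EYFP+/-) came from spinal cords of Clec9aCre RosaLSLtdTomato and Clec9aCre RosaLSLEYFP mice. In these mice, Cre from the Clec9a locus, which encodes DNGR-1, switches on a fluorescent reporter in cells that have expressed this gene and in their progeny. The hippocampal line (labelled DNGR-1+/+) came from GlastCre Huwe1fl RosaLSLEYFP mice, and its NSCs and astrocytes carry the same alleles; whether Huwe1 was deleted in them is not given in the sources used here. Replicates were cultures at passages 10, 11 and 12, so that the p-values measure the spread between passages of a line and not between animals. Origin, line and genotype cannot be told apart in this design, and neither can BMP4, the change of medium and the longer culture. In bulk RNA, fewer cells of a type and less RNA per cell cannot be told apart either.

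Astrocyte and proliferation markers followed the labelled fate, and NSC markers went both ways. Of 8 astrocyte markers, 7 were higher in astrocytes over the 3 lines, with Gfap rising by 6.53 ± 0.15 on the log2 scale (SE), and all 5 proliferation markers were lower, with Mki67 falling by 6.21 ± 0.09. The summed level of the 5 proliferation markers lay between 14.71 and 15.08 (log2) in the 9 NSC libraries and between 11.38 and 11.64 in the 9 astrocyte libraries, so that it moves with every difference between fates given here. Of 5 NSC markers, 2 were higher (Sox2 by 1.06 ± 0.07) and 3 lower (Nes by 2.15 ± 0.34). Among markers of other cells, 4 of 4 ciliated ependymal, 3 of 4 neuronal and 2 of 3 oligodendrocyte markers tested were higher in astrocytes, and of 2 endothelial and mural markers 1 was higher and 1 lower. The summed neuronal level was 8.63 to 8.90 in NSCs and 9.01 to 9.62 in astrocytes, that of the oligodendrocyte markers 11.30 to 12.04 and 12.74 to 13.37, that of the endothelial and mural markers 4.01 to 4.59 and 5.86 to 6.34, and that of the ciliated markers 9.44 to 10.50 and 11.06 to 12.39. None of 4 microglial and leukocyte markers passed the filter, and their summed level stayed below 2.09 in all libraries. The part of these markers in the results below was not tested.

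All 80 ribosomal protein genes tested were lower in astrocytes than in NSCs. Averaged over the 80 genes, the log2 value was 12.56, 12.54 and 12.56 in the 3 tdTomato NSC libraries and 11.89, 11.75 and 11.79 in the tdTomato astrocytes. In the EYFP line it was 12.49, 12.49 and 12.52 in NSCs and 11.87, 11.75 and 11.90 in astrocytes. In the hippocampal line it was 12.36, 12.35 and 12.41 in NSCs and 11.56, 11.62 and 11.59 in astrocytes. Every astrocyte library thus lay below every NSC library. The mean was 12.47 ± 0.08 in NSCs and 11.75 ± 0.13 in astrocytes (SD, n = 9 each), and the pooled SD within groups of 3 was 0.0464. When the log2 values were turned back to a linear scale and summed over all genes, the 80 genes made up 3.03% ± 0.15 of the sum in NSCs and 1.72% ± 0.18 in astrocytes (SD, n = 9). This is a share of the deposited normalized values and not of reads.

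**Figure D1:**
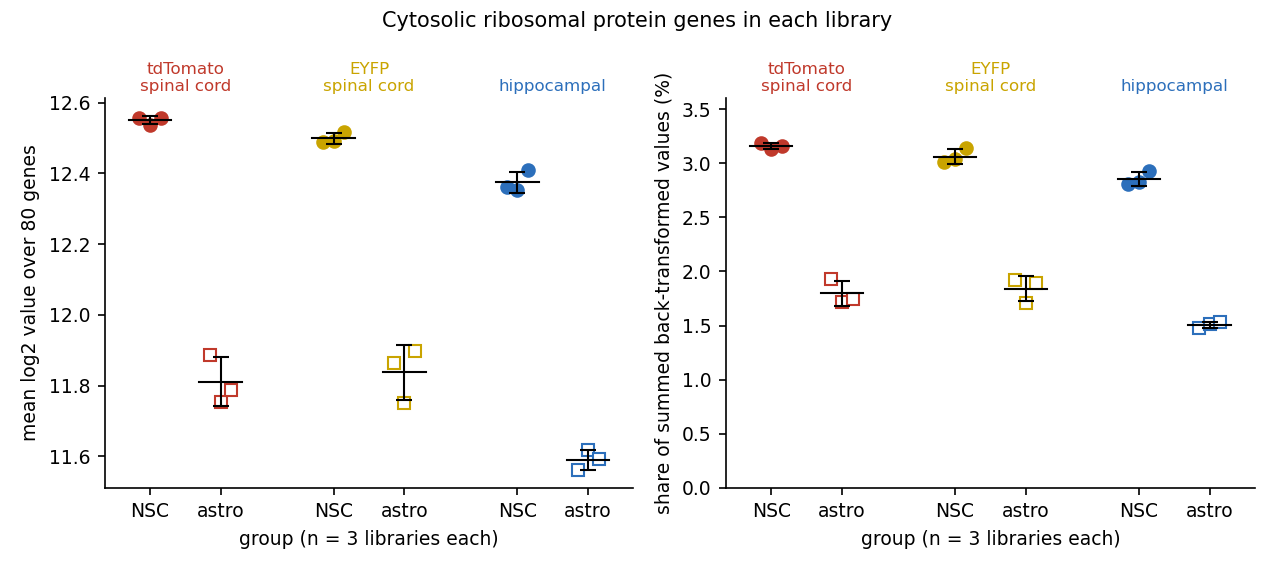
Level of 80 cytosolic ribosomal protein genes in each library, as the mean log2 value (left) and as the share of the summed back-transformed values in percent (right). Points are libraries (filled, NSC; open, astrocyte), and lines and bars are mean ± SD of n = 3; the astrocyte libraries of each line lie below its NSC libraries, at 11.56 to 11.90 against 12.35 to 12.56 on the left axis.

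In the test over the 3 lines (limma with a variance trend, Benjamini-Hochberg adjustment over all genes), 80 of 80 genes were lower in astrocytes and 0 higher, also at an unadjusted p under 0.05. Of all 15448 genes tested, 39.8% were lower and 42.1% higher. The largest adjusted p among the 80 genes was 2.5e-05. The median change was -0.74 on the log2 scale, which leaves 59.7% of the NSC level, with an interquartile range of -0.84 to -0.61. The median over all genes was 0.02. The genes changed by similar amounts: 59 of 80 lay within 0.2 of the median, and the whole range ran from -1.18 to -0.27. The median was -0.72 for the 48 large subunit genes tested and -0.78 for the 32 small subunit genes.

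Each line on its own gave the same count. In the tdTomato line 80 of 80 genes were lower, against 39.5% of all genes lower and 39.9% higher, with a median change of -0.74. In the EYFP line 80 of 80 were lower, against 37.4% lower and 37.5% higher, with a median of -0.67. In the hippocampal line 80 of 80 were lower, against 38.2% lower and 39.2% higher, with a median of -0.79. All 80 genes were thus called lower in each of the 3 lines, as were 4101 of 14211 genes tested in all 3 (28.9%). Within a line, every astrocyte library was below every NSC library for 80 of 80 genes, compared with 40.7% (tdTomato), 39.1% (EYFP) and 39.4% (hippocampal) of all genes. With the 9 libraries of a fate pooled, 75 of 80 genes and 23.2% of all genes did not overlap. Among the 5 genes that did were Rpl29 and Rps13, whose levels differed between lines, and Rps12 and Rpl10, whose changes had an SE of 0.09 and 0.08; they were named after their values were seen.

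Across the 80 genes, the change in the tdTomato line and that in the EYFP line had a Pearson r of 0.91, tdTomato and hippocampal one of 0.77, and EYFP and hippocampal one of 0.82. Genes are not independent replicates and share their libraries, so that these values only describe the likeness. The change over the 3 lines had a Pearson r of 0.02 with transcript length (log2), of 0.01 with the share of the transcript found elsewhere in the transcriptome, and of -0.03 with the NSC level. A gene's place in the order of changes was thus similar in the 3 lines and bore little relation to these 3 properties. Length and share were those of a single reference transcript per gene, which can be much longer than the coding part.

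**Figure D2:**
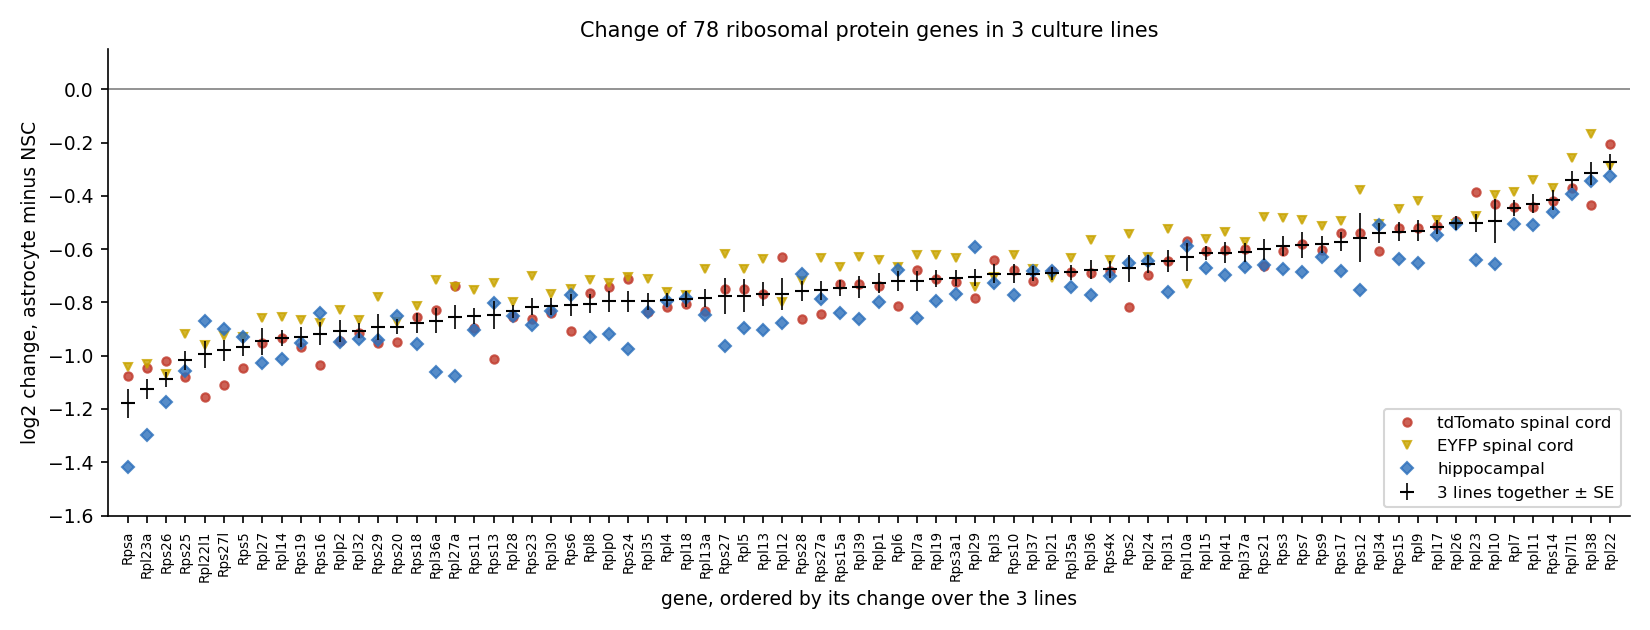
Log2 change from NSC to astrocyte of 78 of the 80 ribosomal protein genes in the tdTomato, EYFP and hippocampal lines (coloured symbols, each the difference of 2 means of n = 3) and over the 3 lines (black, ± SE), ordered by the latter. All symbols lie below 0, from Rpsa at -1.18 to Rpl22 at -0.27 over the 3 lines.

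The largest fall was that of Rpsa, the laminin receptor precursor that is also a protein of the small subunit (chr9:120127689-120132369, GRCm38). Its log2 value was 14.52, 14.59 and 14.61 in tdTomato, 14.47, 14.45 and 14.64 in EYFP and 14.50, 14.45 and 14.58 in hippocampal NSCs. In astrocytes of these lines it was 13.57, 13.46 and 13.46, then 13.53, 13.38 and 13.52, and then 13.06, 13.16 and 13.06. The NSC groups shared the same range, and the hippocampal astrocytes were the lowest group. The change over the 3 lines was -1.18 ± 0.05 (SE, adjusted p = 8.4e-13), which leaves 44.2% of the NSC level. Next came Rpl23a at -1.13 ± 0.04, a large subunit protein beside the exit of the peptide tunnel, Rps26 at -1.09 ± 0.03, Rps25 at -1.02 ± 0.04, known for its role in initiation at internal entry sites, Rpl22l1 at -0.99 ± 0.05 and Rps27l at -0.98 ± 0.04. The last 2 are paralogs of Rpl22 and Rps27. The adjusted p was at most 4.0e-12 for these 6 genes.

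The smallest fall was that of Rpl22, a large subunit protein that is dispensable for most translation. Its log2 value had a lowest, median and highest of 12.48, 12.59 and 12.72 in the 9 NSC libraries and of 12.19, 12.31 and 12.48 in the 9 astrocyte libraries. The ranges met but did not overlap, and the change was -0.27 ± 0.03 (SE, adjusted p = 1.1e-07). Rpl38, a large subunit protein known for its part in translating Hox mRNAs in the embryo, fell by 0.32 ± 0.04, and Rpl7l1, a relative of Rpl7 that acts in assembly of the large subunit, by 0.34 ± 0.03. Rps14 (0.42 ± 0.04), Rpl11 (0.43 ± 0.04) and Rpl7 (0.45 ± 0.03) completed the 6 smallest falls. The paralog Rpl22l1 and its parent Rpl22 therefore stood near opposite ends of the order, whereas Rpl7l1 and Rpl7 stood near the same end.

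Genes were also compared by the role of their protein. The stalk, which recruits the elongation factors, is formed by Rplp0, Rplp1 and Rplp2. The lowest, median and highest log2 values of Rplp0 were 14.47, 14.94 and 15.01 in NSCs and 13.57, 14.14 and 14.31 in astrocytes, and it fell by 0.80 ± 0.04. Rplp1 fell by 0.73 ± 0.04 and Rplp2 by 0.91 ± 0.04, so that Rplp0 and Rplp1 lay within the interquartile range of the set and Rplp2 below it. Rpl5 and Rpl11 form a particle with 5S rRNA and can bind Mdm2 when ribosome assembly is disturbed. Rpl5 went from 10.27, 10.32 and 10.49 to 9.15, 9.56 and 9.87, a change of -0.77 ± 0.06, and Rpl11 from 12.06, 12.14 and 12.26 to 11.50, 11.75 and 11.84. The fall of Rpl11 was the smaller of the 2. Rps6, the substrate of the S6 kinases, went from 12.28, 12.42 and 12.49 to 11.41, 11.58 and 11.77, a change of -0.81 ± 0.04 (adjusted p = 4.3e-12). These are levels of each gene without its pseudogene copies. With the copies summed, Rpl5 had means of 14.02, 14.06 and 13.92 in tdTomato, EYFP and hippocampal NSCs. Rps6 had 14.05, 14.05 and 13.91 in the same groups.

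Some ribosomal proteins are made as fusions with ubiquitin or a ubiquitin-like protein. Rps27a, which is among the 80 genes, went from 12.02, 12.13 and 12.28 (lowest, median and highest in 9 NSC libraries) to 11.16, 11.35 and 11.54, a change of -0.76 ± 0.03. Fau, which encodes a further fusion and is outside the naming rule, fell by 0.55 ± 0.03, from 11.17, 11.46 and 11.56 to 10.63, 10.92 and 10.99. Rack1, a scaffold protein on the small subunit, fell by 0.96 ± 0.03 and Rpl36al by 0.81 ± 0.03, also outside the rule.

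Because these genes moved together, the letters around their start sites were read from RefSeq (GRCm38.p6), where 61 of 81 genes matched by symbol. The windows below, of 10 bases before and 20 bases from the start site on, are shown because they hold the pyrimidine run for which these mRNAs are known. Capitals mark a run of at least 7 pyrimidines. As windows picked for this run, they do not show how many of the genes hold one. They lie at chr4:86857348-86857377 (Rps6, minus strand), chr7:4792955-4792984 (Rpl28, plus strand), chr2:39005112-39005141 (Rpl35, minus strand), chr17:27635225-27635254 (Rps10, minus strand), chr17:33955646-33955675 (Rps18, minus strand) and chr16:33056472-33056501 (Rpl35a, plus strand).
Rps6: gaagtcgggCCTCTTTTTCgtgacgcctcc
Rpl28: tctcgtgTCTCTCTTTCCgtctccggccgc
Rpl35: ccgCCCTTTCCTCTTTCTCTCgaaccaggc
Rps10: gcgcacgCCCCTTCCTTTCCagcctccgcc
Rps18: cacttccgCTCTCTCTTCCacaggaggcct
Rpl35a: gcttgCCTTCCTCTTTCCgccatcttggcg
In windows of 50 bases on either side of the start site, CTTTCC on the sense strand was found in 30.0% of 60 ribosomal protein genes with a tested change and in 5.43% of 27025 genes. For CTCTTT on this strand the shares were 31.7% and 4.69%; the 2 motifs overlap where CTCTTTCC occurs. At least 1 of them was found in 29 of the 60 genes (48.3%) and in 9.29% of all genes. CCGGAAG, the core bound by Ets family factors such as Gabpa, was found on either strand in 23.3% of these genes and in 5.98% of all genes, and CCATNTT, the core of the YY1 site, in 18.3% and 7.16%. The genes with CTTTCC or CTCTTT had a median change of -0.72 and the other 31 one of -0.74. A match describes these windows only and is not a bound site.

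The genes that make and use ribosomes were mostly lower too, in lists chosen with earlier results of these data known. Their counts stand beside 39.8% of all genes lower and 42.1% higher. Of 8 proteins of the small nucleolar RNA particles, which modify rRNA, 8 were lower and 0 higher, with a median change of -1.0 and Nop56 (-1.47 ± 0.05), Fbl (-1.17 ± 0.04), the rRNA methyltransferase, and Gar1 (-1.09 ± 0.05) in front. Of 76 ribosome assembly factors, 69 were lower and 2 higher (median -0.58); among them Lyar fell by 1.23 ± 0.05, the helicase Ddx21 by 1.20 ± 0.05 and nucleophosmin (Npm1) by 1.08 ± 0.03. The 2 that rose were Sbds (0.68), which acts in the last steps of large subunit maturation, and Imp4 (0.22). Of 34 translation factors and other genes whose mRNAs carry pyrimidine runs, 31 were lower and 2 higher (median -0.45), with Hnrnpa1, an RNA-binding protein, at -1.98 ± 0.03, Eif4a1 at -1.16 ± 0.07 and Eif5a at -0.92 ± 0.05. The 2 higher genes were Eif4a2 (0.63), a relative of the helicase gene Eif4a1 that fell, and Eif5b (0.31). The genes that rose were named after their values were seen.

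RNA polymerase I and its factors, which transcribe rRNA, were divided: 11 of 15 were lower and 3 higher (median -0.39), beside 39.8% and 42.1% of all genes. Taf1d fell by 1.07 ± 0.08, Polr1b by 0.86 ± 0.04 and Polr1e by 0.84 ± 0.05, whereas Ubtf and Ttf1 rose by 0.20 each and Taf1c by 0.14. Of 15 regulators of ribosomal protein mRNAs, 9 were lower and 5 higher (median -0.16), the latter not above the share of all genes. Among these, Trp53, which encodes p53, fell by 1.00 ± 0.08, Eif4ebp1, a target of mTOR that blocks initiation, by 0.92 ± 0.17 and Rps6kb1, the kinase of Rps6, by 0.62 ± 0.04. Higher were Tsc1 (0.37) and Tsc2 (0.18), which restrain mTOR, and also Eif4ebp2 (0.31), Rheb (0.17) and Mtor itself (0.08). Of 78 genes for proteins of the mitochondrial ribosome, 57 were lower and 4 higher (median -0.24), with Mrpl58, Mrps28 and Mrpl53 falling by 0.88 ± 0.04, 0.86 ± 0.05 and 0.85 ± 0.06. The medians of the lists thus lay between that of the small nucleolar particles, below the cytosolic ribosomal proteins, and that of the regulators. The median of the regulators by line was -0.34 (tdTomato), -0.21 (EYFP) and -0.23 (hippocampal), and that of all genes over the 3 lines was 0.02. Lists were not tested against each other.

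**Figure D3:**
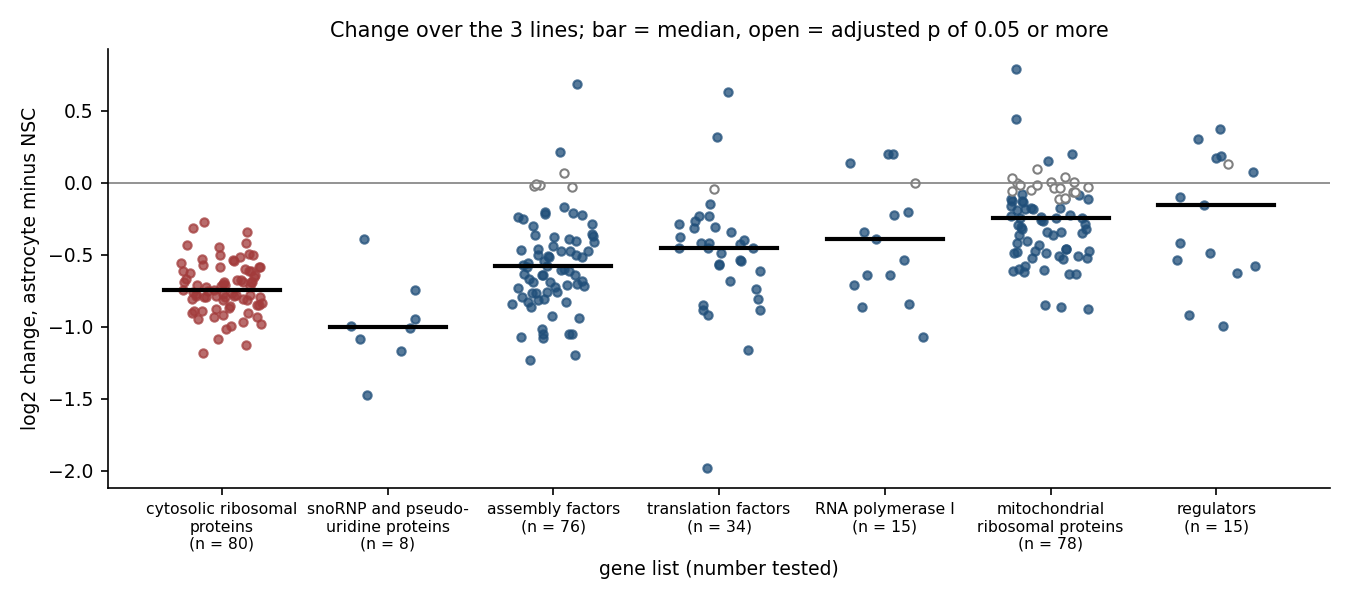
Log2 change from NSC to astrocyte over the 3 lines of each gene tested in 7 lists (points; open where the adjusted p is 0.05 or more; bars are medians). The cytosolic ribosomal protein genes form a narrow band around -0.74 with all 80 below 0, whereas the assembly factors run from -1.23 to 0.68.

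The size of the fall differed between origins for some of the genes. In the interaction over all 18 libraries (limma, hippocampal change minus the mean change of the 2 spinal cord lines), 17 of 80 genes fell more in the hippocampal line and 2 fell less. These are 21.2% and 2.5% of the genes, beside 20.3% and 25.9% of all genes with a negative or a positive difference. The share with a larger fall was thus close to that of all genes. With median centring the counts were 37 of 80 and 0, beside 26.2% and 20.5% of all genes, so that how far the count stands above all genes depends on the scaling. Leaving out hippocampal NSC replicate 3, hippocampal astrocyte replicate 1 or EYFP astrocyte replicate 3 gave 9, 10 and 11 genes with a larger fall. Among the genes past the threshold, the 4 with the largest difference were Rpsa (-0.36 ± 0.07, adjusted p = 0.00056), Rpl27a (-0.34 ± 0.05, adjusted p = 2.9e-05), Rpl36a (-0.29 ± 0.07, adjusted p = 0.0016) and Rps24 (-0.27 ± 0.05, adjusted p = 0.00014). Rpl27a was 11.93, 11.86 and 11.87 in tdTomato, 11.93, 11.97 and 11.99 in EYFP and 11.93, 11.93 and 12.01 in hippocampal NSCs, and 11.16, 11.12 and 11.17, then 11.21, 11.19 and 11.27, then 10.83, 10.97 and 10.85 in astrocytes. The NSC groups of Rpl27a overlapped, and the hippocampal astrocytes lay below the other astrocytes. Rpl29, named after its values were seen, was among the 2 genes that fell less in the hippocampal line (0.17 ± 0.05, adjusted p = 0.0097), but the direction turned when its pseudogene copies were summed with it (-0.17, adjusted p = 0.0087).

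Between the EYFP and the tdTomato line, the change was smaller in the EYFP line for 2 of 80 genes and larger for 0 (interaction, limma; 10 and 0 at an unadjusted p under 0.05), beside 6.98% and 6.36% of all genes. The 2 genes past the threshold were Rpl38 (0.26 ± 0.08, adjusted p = 0.034) and Rps27a (0.21 ± 0.06, adjusted p = 0.040). Rpl38 was 10.83, 10.89 and 10.87 in tdTomato and 10.70, 10.72 and 10.73 in EYFP NSCs, and 10.57, 10.40 and 10.33 and then 10.63, 10.42 and 10.58 in astrocytes. Its NSC groups were apart and its astrocyte groups overlapped. Neither call was stable: with median centring (beside 5.89% and 7.33% of all genes), without a variance trend or without a filter on low values, 0 genes were called, and leaving out single libraries gave counts from 0 to 12.

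Levels were next compared between lines within a fate. In NSCs, 29 of 80 genes were higher in the spinal cord lines than in the hippocampal line and 0 lower (limma; 47 and 0 at an unadjusted p under 0.05), beside 10.6% of all genes higher and 8.81% lower. The median difference was 0.10. The count was 17 with median centring, beside 8.84% of all genes higher and 11.0% lower, 18 without a variance trend and 36 when each gene was summed with its pseudogene copies. Leaving out hippocampal NSC replicates 1, 2 and 3 in turn gave 13, 12 and 18, and leaving out tdTomato NSC replicates 1 and 2 gave 17 and 18. Of 8 astrocyte markers, 5 were lower in the spinal cord NSCs and 0 higher (median -0.69), with a summed log2 level of 15.06 to 15.40 in tdTomato, 15.63 to 15.85 in EYFP and 16.21 to 16.23 in hippocampal NSCs, and of 5 NSC markers 1 was lower; 0 of 5 proliferation markers and 0 of 8 markers of other cells tested were called. In astrocytes, 50 of 80 genes were higher in the spinal cord lines and 0 lower (57 and 1 at an unadjusted p under 0.05), beside 24.1% and 27.9% of all genes, with a median difference of 0.19. In the same comparison, 3 of 4 ciliated ependymal markers were lower in the spinal cord lines (median -1.25), with a summed level of 11.06 to 11.42 in tdTomato, 11.16 to 11.32 in EYFP and 12.23 to 12.39 in hippocampal astrocytes. Of 8 astrocyte markers 4 were lower and 1 higher (median -0.48), with a summed level of 17.24 to 17.46, 17.42 to 17.69 and 17.82 to 17.98 in these groups. Of 4 neuronal markers 3 were higher and 1 lower (median 0.85), with a summed level of 9.47 to 9.62, 9.20 to 9.32 and 9.01 to 9.24, and of 5 proliferation markers 2 were higher and 1 lower. Of 5 NSC markers 2 were higher and 2 lower, and of 3 oligodendrocyte markers tested 1 was higher and 1 lower. The part of these markers in the differences between lines was not tested. The genes move together, so that these counts do not add up independent measurements.

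The EYFP and tdTomato lines were compared in the same way. In NSCs, 2 of 80 genes were higher and 9 lower in the EYFP line, beside 15.2% and 18% of all genes, and in astrocytes 0 were higher and 1 lower (3 and 2 at an unadjusted p under 0.05), beside 5.63% and 5.60%. Both sets of shares lie below those of all genes in these fits, which hold no replicate block. With a block the count in astrocytes differed, as given in the part on processing. In the NSCs, 5 of 8 astrocyte markers were higher in the EYFP line and 1 lower (median 0.55), 4 of 5 NSC markers were higher and 1 lower (median 0.41, summed level 15.91 to 15.99 against 15.70 to 15.76 in tdTomato), and 2 of 5 proliferation markers were lower. Of 4 neuronal markers 1 was higher and 2 lower. Higher were also 1 of 2 oligodendrocyte markers (summed level 11.96 to 12.04 against 11.30 to 11.43) and the 1 ciliated marker tested (10.27 to 10.32 against 9.44 to 9.79 for the summed list). Of 76 ribosome assembly factors, 47 were lower in EYFP NSCs and 0 higher (median -0.18). The part of these markers was not tested. Rps27l was lower in EYFP NSCs: it was 11.01, 11.03 and 11.09 in tdTomato NSCs and 10.59, 10.60 and 10.63 in EYFP NSCs, a difference of -0.43 ± 0.04 (adjusted p = 0.00014). In astrocytes the difference was -0.25 ± 0.07 (adjusted p = 0.047). The call in astrocytes was lost without a filter on low values (limma, adjusted p = 0.14) and without a variance trend (adjusted p = 0.11). It was also lost with any of the 6 libraries left out (adjusted p from 0.063 to 0.11). The call was kept with median centring (adjusted p = 0.036), with quantile normalization (adjusted p = 0.035) and in a fit of all 6 groups (adjusted p = 0.0041). Among the other genes past the threshold in NSCs, Rpl13 (-0.18 ± 0.04) and Rps19 (-0.16 ± 0.03), a gene mutated in Diamond-Blackfan anaemia, were lower in the EYFP line and Rpl22 (0.17 ± 0.04) higher. The 9 genes lower in EYFP NSCs were 5, 3, 5 and 5 without tdTomato NSC replicates 2 and 3 and EYFP NSC replicates 1 and 2.

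The genes with the largest differences between origins share sequence with pseudogenes, as do most of the set. The share of a transcript's 75-base stretches that also occur in transcripts of other genes ran from 0% to 98.5% over the 81 genes, with a median of 39.9%, and was at least 50% for 28 genes. A single reference transcript was used per gene, and a long one with much sequence outside the coding part lowers the share. That of Rps15a had 5179 bases, 390 of them coding, and a share of 4.13%. Rpl21, which shares stretches with 60 pseudogenes, had a share of 22.1%. By these transcripts, the fall in astrocytes was similar on either side of 50%, with a median of -0.77 for the 52 tested genes below 50% and of -0.71 for the other 28. Summing each gene with its annotated pseudogene copies left 80 of 80 genes lower in astrocytes, with a median of -0.75.

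Rpl29, a large subunit protein (chr9:106429454-106431568), had log2 values of 12.91, 12.97 and 12.96 in tdTomato, 12.81, 12.83 and 12.90 in EYFP and 10.79, 10.81 and 10.85 in hippocampal NSCs. Its astrocytes had 12.21, 12.13 and 12.15, then 12.17, 12.03 and 12.12, then 10.19, 10.22 and 10.25. The hippocampal line stood apart from the other two in both fates, by 2.09 ± 0.04 in NSCs (adjusted p = 9.1e-10) and 1.91 ± 0.04 in astrocytes. Of its stretches, 30.5% also occur in Gm13841 and in Gm8210, processed pseudogenes that both had a mean of 10.40 in hippocampal NSCs and of 2.58 and 2.52 in tdTomato and EYFP NSCs. The copies were thus high where Rpl29 was low. After summing, the difference between origins was 0.75 in NSCs and 0.92 in astrocytes.

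Rpl30, a large subunit protein, had 12.25, 12.19 and 12.22 in tdTomato, 12.08, 12.18 and 12.19 in EYFP and 11.56, 11.55 and 11.60 in hippocampal NSCs. The hippocampal line was the lowest, by 0.61 ± 0.04 (adjusted p = 3.7e-06), and by 0.11 once the copies were summed. Its copy Gm12191 had means of 10.99, 11.11 and 11.67 in the same groups. For Rplp0 the differences were 0.44 and 0.28, and its copy Gm8730 had means of 5.52, 5.75 and 11.03. In Rpl29, Rpl30 and Rplp0 these copies were higher in the hippocampal line and the named gene lower.

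Rps13, a small subunit protein, shows how little separates a gene from its copies. It had 10.82, 10.73 and 10.85 in tdTomato, 10.69, 10.66 and 10.68 in EYFP and 9.93, 10.04 and 10.03 in hippocampal NSCs, a difference of 0.74 ± 0.05 (adjusted p = 7.1e-06). The pseudogene Rps13-ps1 had means of 4.51, 4.23 and 9.91 in these groups and Rps13-ps2 of 12.07, 12.02 and 11.66, so that Rps13-ps2 was listed above the gene itself in every group. With the copies summed, the difference was 0.19 in NSCs (adjusted p = 0.0034) and 0.21 in astrocytes. The stretch below, coding bases 340 to 429 of 453 of Rps13 and the matching bases of both pseudogenes, is longer than the 75 bases compared, and capitals mark bases that differ from Rps13. Rps13 lies at chr7:116331505-116334195 (minus strand), Rps13-ps1 at chr8:87047689-87048226 (plus strand) and Rps13-ps2 at chr7:88530446-88530898 (minus strand) of GRCm38.
Rps13: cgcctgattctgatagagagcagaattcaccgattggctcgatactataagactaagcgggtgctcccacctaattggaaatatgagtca
Rps13-ps1: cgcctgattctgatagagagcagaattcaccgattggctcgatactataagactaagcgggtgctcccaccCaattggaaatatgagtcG
Rps13-ps2: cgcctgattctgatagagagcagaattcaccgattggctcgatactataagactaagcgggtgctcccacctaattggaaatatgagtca
In this stretch 2 bases differ in Rps13-ps1 and 0 in Rps13-ps2, whose letters here are those of the gene. How reads were divided between them was not tested, and the level of Rps13 alone is uncertain. Its fall in astrocytes was seen in each line.

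**Figure D4:**
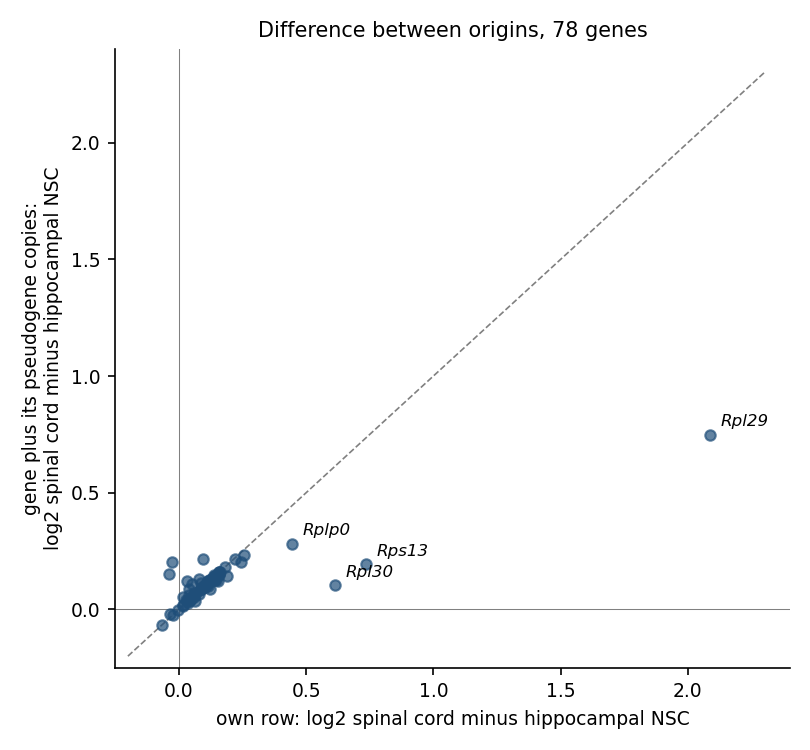
Difference in log2 value between spinal cord and hippocampal NSCs for 78 of the 80 ribosomal protein genes, by the gene's own value (horizontal axis) and by the sum of the gene and its annotated pseudogene copies (vertical axis). Of 4 plotted genes with an own difference above 0.3, which are labelled, 1 (Rpl29, at 0.75) remains above it after summing; the dashed line marks equal values.

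Several ribosomal proteins have a second gene. Of 9 pairs listed, 5 could be tested; Rpl10l and Rpl39l were not analysed here, and Rpl3l and Rps4l were below the filter. The balance within a pair was the log2 value of the paralog minus that of the parent in each library, and its change from NSC to astrocyte was tested with a two-sided exact permutation test of the fate labels within lines (8000 relabellings, smallest possible p 0.00025, Benjamini-Hochberg adjustment over 5 pairs). The balance shifted most for Rpl22l1 against Rpl22, whose coding sequences are 68.2% identical. The difference was -2.12 ± 0.09, -2.39 ± 0.06 and -2.23 ± 0.07 in tdTomato, EYFP and hippocampal NSCs and -3.07 ± 0.08, -3.07 ± 0.16 and -2.77 ± 0.15 in the astrocytes (SD, n = 3). All 9 astrocyte libraries lay below all 9 NSC libraries. The shift was -0.72 (exact permutation p = 0.00025, the smallest these relabellings can give, adjusted p = 0.0013). Per kb of transcript, Rpl22l1 was at 78.3% of the level of Rpl22 in NSCs and at 47.5% in astrocytes. These levels rest on a single reference transcript per gene, of 2051 bases for Rpl22 and 552 for Rpl22l1. Another choice of transcript would move both percentages, whereas the shift between fates does not use the lengths.

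In the other pairs the shifts were smaller. Rpl7l1 rose against Rpl7 by 0.11, from -2.85 ± 0.13 to -2.74 ± 0.14 (SD, n = 9; exact permutation p = 0.0095, adjusted p = 0.024), and the ranges of the fates overlapped. The call was lost when labels were exchanged across lines (adjusted exact permutation p = 0.26) or only between same-numbered libraries of a line (adjusted exact permutation p = 0.068). It was also lost without hippocampal NSC replicate 2 or tdTomato astrocyte replicate 2 (adjusted exact permutation p = 0.061 and 0.050). With quantile normalization the change was 0.25. Per kb of their reference transcripts, with the same limit, Rpl7l1 was at 6.21% of Rpl7 in NSCs and 6.68% in astrocytes. For Rpl36al against Rpl36a (87.7% identical coding sequences) the change was 0.06, with an exact permutation p of 0.26 (adjusted p = 0.33). By line it was -0.06 (tdTomato), -0.01 (EYFP) and 0.25 (hippocampal), and without hippocampal astrocyte replicate 1 it was 0.039 over the 3 lines.

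Rps27 has 2 related genes, and their coding starts are printed because they show the difference in how well each can be told apart. Capitals mark bases that differ between Rps27 (transcript at chr3:90212671-90213651, minus strand) and Rps27l (transcript at chr9:66946086-66949512, plus strand); Rps27rt (transcript at chr9:114982366-114982739, minus strand) is compared with Rps27. The first 90 coding bases are shown, taken from GENCODE M21 transcripts.
Rps27: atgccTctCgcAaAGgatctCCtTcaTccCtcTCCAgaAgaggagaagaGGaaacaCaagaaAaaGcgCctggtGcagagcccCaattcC
Rps27l: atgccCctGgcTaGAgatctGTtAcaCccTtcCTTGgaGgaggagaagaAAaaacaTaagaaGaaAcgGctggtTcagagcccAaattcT
Rps27rt: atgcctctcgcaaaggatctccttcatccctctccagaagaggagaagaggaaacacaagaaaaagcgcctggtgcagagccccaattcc
Rps27l differed from Rps27 in 24 of these bases and in 60 of 252 over the coding sequence, whereas the coding sequence of Rps27rt was 100% identical to that of Rps27. The change of Rps27l against Rps27 was -0.20 (exact permutation p = 0.030, adjusted p = 0.050, not past the threshold). By line, the change was -0.36 (tdTomato), -0.31 (EYFP) and 0.06 (hippocampal). Without hippocampal astrocyte replicate 2 it was -0.26 (adjusted exact permutation p = 0.0044), and without EYFP astrocyte replicate 1 -0.22 (adjusted exact permutation p = 0.043). In that hippocampal library Rps27 was at 10.78 and Rps27rt at 9.83, compared with 11.22 and 11.39 for Rps27 and 8.36 and 8.25 for Rps27rt in the other two. The parent was thus lowest where its identical copy was highest. For Rps27rt against Rps27 the change was 0.26 (exact permutation p = 0.46), with the fates overlapping. By line it was -0.03 (tdTomato), -0.07 (EYFP) and 0.87 (hippocampal), and without that same hippocampal library it was 0.027 over the 3 lines.

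**Figure D5:**
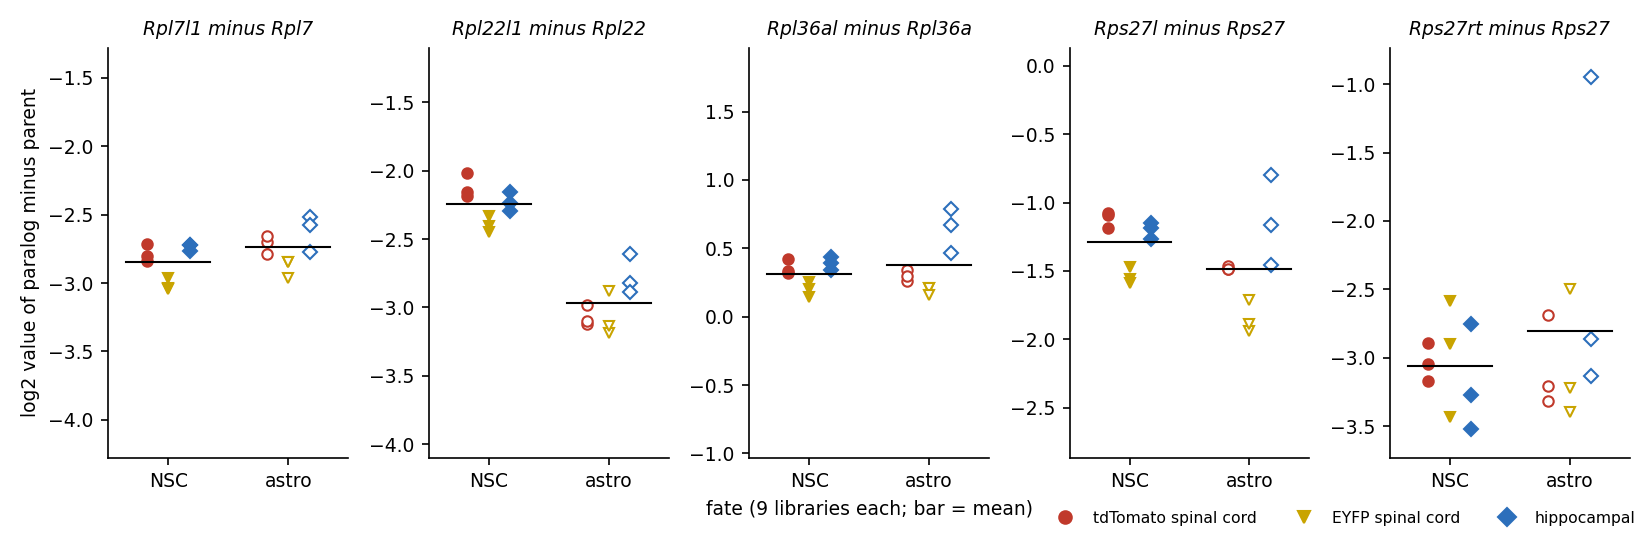
Log2 value of the paralog minus that of the parent in each library for 5 pairs, by fate (filled, NSC; open, astrocyte) and line; bars are means of 9 libraries, and each panel spans 3 log2 units. Only in the panel of Rpl22l1 and Rpl22 do the fates not overlap, at -2.45 to -2.02 in NSCs and -3.18 to -2.61 in astrocytes.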

How the data were processed

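RNA of 18 cultures (6 groups of 3) was sequenced by the authors, who aligned the reads with STAR to Ensembl 89 on GRCm38, estimated gene counts with RSEM (version 1.3.0, per the labels) and used DESeq2 (version 1.18.1) for normalization. The table deposited by the authors holds log2 values of normalized expression for 27997 genes, 29.4% of them negative. They look like a regularized log, although the sources used here name no transform; such a log pulls weakly expressed genes towards their mean and so understates their changes. Counts were not used, and the depth behind each value is unknown. The labels state at least 25 M single-end reads of 76 bases per sample.

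Here, limma (version 3.58.1, R 4.3.3) with a variance trend was run on these values without a pseudocount, for genes reaching a log2 value of 3.32 in 3 or more of the libraries compared, with Benjamini-Hochberg adjustment over all genes and a threshold of 0.05. The fit over the 3 lines had the line as a covariate. Annotation was GENCODE M21 (GRCm38), and promoters were RefSeq. Coding sequences were aligned with Biopython (version 1.88), and permutation tests were run in Python (version 3.11.15).

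The genes, pairs and lists were chosen with earlier results of these data known. Named were the genes of each pair, those with the 6 largest falls and rises (none rose), the 4 largest differences past the threshold in each interaction and comparison of lines, genes of set roles and 3 genes per list. The 6 smallest falls were named after their values were seen. Alternatives were the filter, median centring, quantile normalization, no variance trend, a fit of all 6 groups, a replicate block, only genes under 50% shared sequence, leaving out each library and, chosen after seeing the data, summing pseudogene copies that hold at least 1% of a gene's stretches. Values of 3 genes are not reported here.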

Additional observations from a re-analysis of the deposited data

Results flagged for a closer look

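The change from NSC to astrocyte differed between origins, by a test of the difference itself, for 17 genes that fell more in the hippocampal line and 2 that fell less, led, among the genes past the threshold, by Rpsa (-0.36), Rpl27a (-0.34), Rpl36a (-0.29) and Rps24 (-0.27, all as hippocampal change minus the mean change of the spinal cord lines, log2). These are 21.2% and 2.5% of the genes, beside 20.3% and 25.9% of all genes, and with median centring the counts were 37 of 80 and 0, beside 26.2% and 20.5% of all genes. Between the EYFP and tdTomato lines the same kind of test gave 2 genes with a smaller fall in the EYFP line, Rpl38 (0.26) and Rps27a (0.21), and 0 with a larger one (limma; 10 and 0 at an unadjusted p under 0.05), beside 6.98% and 6.36% of all genes. With median centring, without a filter or without a variance trend, 0 genes were called.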

How the results depend on the processing

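The fall of the ribosomal protein genes kept its direction and its count of 80 in each line and over the 3 lines under every alternative that kept all genes; counting only genes under 50% shared sequence left 52 of 52 tested in each, by construction. Without a filter, 1 gene, Rpl3l, was higher over the 3 lines and 1 (Rpl3l) in the hippocampal line. Counts for the interactions and for differences between lines were less stable. For the fate by origin interaction, the genes with a larger hippocampal fall numbered 11 without a filter, 37 with median centring and 10 of the 52 genes under 50% shared sequence, and those with a smaller fall 0 with median centring and 1 each with quantile normalization, with copies summed and under 50% shared sequence. With copies summed, the interaction of Rpl29 reversed from 0.17 to -0.17. For the fate by traced line interaction, the genes with a smaller EYFP fall numbered 0 without a filter, with median centring, without a variance trend and with copies summed, and 1 under 50% shared sequence. In spinal cord against hippocampal NSCs, 17 genes were higher with median centring and 18 without a variance trend. In the astrocytes, 32 of the 52 genes under 50% shared sequence were higher, and 2 were lower in a fit of all 6 groups. In EYFP against tdTomato NSCs, 1 gene was higher without a filter and in the fit of all 6 groups, and the genes lower numbered 5 without a filter, 4 without a variance trend, 3 in the fit of all 6 groups and 5 under 50% shared sequence. In EYFP against tdTomato astrocytes, 1 was higher in the fit of all 6 groups, and 0 were lower without a filter or without a variance trend. The counts under 50% shared sequence are out of 52 genes and so fall by construction. The cause of the other moves was not tested.

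Replicate numbers were not taken to pair the libraries: after subtraction of group means, same-numbered libraries had a mean correlation across genes of 0.11 within a fate across lines (9 of 18 pairs over 0.1) and -0.02 between the fates of a line, although 17 of 18 libraries correlated best with their own number. Within a fate, the 18 correlations ran from 0.01 to 0.31. Without a block, comparisons of lines within a fate count what same-numbered libraries share as spread. The replicate block gave 1 gene with a smaller EYFP fall in the fate by traced line interaction and 5 higher in EYFP against tdTomato astrocytes, and it ended the call of Rpl7l1 against Rpl7 (0.11, adjusted exact permutation p = 0.068), as did exchanging labels without regard to line (0.11, adjusted exact permutation p = 0.26). It ended no other call among the counts of fate change and the pairs. Under the block, Rps27l was lower in EYFP than in tdTomato astrocytes at an adjusted p of 0.0056 (limma).

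Leaving out each library in turn gave 9 to 24 genes with a larger hippocampal fall, 0 to 12 with a smaller EYFP fall, 12 to 28 higher in spinal cord NSCs, 0 to 1 lower in spinal cord astrocytes, 0 to 2 higher and 3 to 11 lower in EYFP NSCs, and 0 to 0 lower in EYFP astrocytes. The shift of Rpl7l1 against Rpl7 ran from 0.088 to 0.13 and that of Rps27l against Rps27 from -0.26 to -0.15. Of 244 other settings and 294 that leave out a library, 209 and 254 changed no direction or call and moved no count by over 1.5 times, and none of these reversed a direction, unlike the interaction of Rpl29 above. Unknown depth and shared sequence limit the level of single genes.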
